A study of Mus musculus with 6 samples.

Results

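The 6 genes described here form membrane channels and were followed across the cultured cells of the mouse choroid and retinal pigment epithelium (RPE): the connexin genes Gjb2, Gja1, Gja4, Gja5 and Gjc1 and the pannexin gene Panx1. They are 6 of the 52636 genes in the count table. They were listed because Gjb2 had fewer counts in Dram2 ko/ko than in Dram2 wt/wt cells of the type named Fibroblast 2, so the values of Gjb2 in that contrast are given as a description and carry no test. The study asked what loss of Dram2, a gene linked to macular dystrophy, does to cells of the outer eye wall. All 6 samples came from male C57BL/6J mice aged 12 to 16 months, whose choroid with attached RPE was dissociated and grown in culture before 10x Genomics 3′ v2 libraries were made. The 3 Dram2 wt/wt samples were the controls, and the 3 Dram2 ko/ko samples came from mice with a germline deletion of exon 4 of Dram2, which is carried by every cell type. Strain, sex, age range and culture were shared by both genotypes, and the cells describe tissue after growth in a dish rather than the intact choroid.

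Connexins assemble in rings of subunits called hemichannels, and when hemichannels of neighbouring cells dock they form a gap junction through which ions and small molecules pass. Gja1 encodes connexin 43, the most widely expressed family member and the usual gap junction protein of RPE and fibroblasts. Gja4 and Gja5 (connexins 37 and 40) are known from arterial endothelium and Gjc1 (connexin 45) from muscle and vascular wall, while Gjb2 (connexin 26) is known from the cochlea, skin and liver. Panx1 forms channels that release ATP from single cells and do not usually dock.

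The connexins share cysteines in each extracellular loop that hold the docking surface in shape, and this is the sequence feature that sets them apart from Panx1. The GENCODE M21 coding sequences of the members (GRCm38) were read for the first of these loops, as a run of codons in which a cysteine is followed after 6 residues by a second and after 3 more by another. The bases of that run are printed 5′ to 3′ on the coding strand, with the cysteine codons in capitals, because they show how far genes that were counted separately are alike in sequence.
Gjb2, minus strand, chr14:57100558-57100593, exon 2 of 2: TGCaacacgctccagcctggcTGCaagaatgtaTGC
Gja1, plus strand, chr10:56387706-56387741, exon 2 of 2: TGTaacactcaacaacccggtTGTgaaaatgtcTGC
Gja4, minus strand, chr4:127312774-127312809, exon 2 of 2: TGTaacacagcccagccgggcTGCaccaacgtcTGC
Gja5, plus strand, chr3:97050788-97050823, exon 2 of 2: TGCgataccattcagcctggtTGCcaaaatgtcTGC
Gjc1, minus strand, chr11:102800984-102801019, exon 3 of 3: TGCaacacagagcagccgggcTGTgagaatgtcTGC
Each of the 5 connexins kept its whole coding sequence in a single exon, and over the 36 bases Gjb2 was identical to Gja1 at 25, to Gja4 and Gja5 at 27 each and to Gjc1 at 28. Panx1, whose coding sequence lay in 5 exons, held no match to this spacing. The 3′ tags were read elsewhere: in the last 400 bases of each member's transcripts, no stretch of 31 bases occurred in another gene for Gjb2, Gja4, Gja5, Gjc1 and Panx1, and 3.1% did on the same strand for Gja1.
The genes also lay apart. Gjb2 (chromosome 14, 57098600 to 57104702) had Gja3 as a neighbour 40499 bases away, and Gja4 lay at 127311421 to 127314039 of chromosome 4. No annotated gene overlapped a member, except that 4 genes on the opposite strand overlapped Gja5 (chromosome 3, 96904693 to 97077416). Gja1 lay at 56377330 to 56402513 of chromosome 10, Gjc1 at 102799579 to 102819700 of chromosome 11 and Panx1 at 15002128 to 15045478 of chromosome 9.

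The table held 25428 cells with deposited type names, between 2140 and 6648 per sample, and 96808998 to 122746184 unique molecular identifiers (UMIs, each standing for 1 captured RNA molecule) per sample. Counts were summed per sample and type, and levels are given as CPM (the gene's UMIs for every 1000000 UMIs of the sum) for sums of 10 or more cells. Dram2 itself stood at 33.4, 39.6 and 38.1 CPM in the Dram2 wt/wt samples and at 30.7, 28.3 and 30.1 CPM in the Dram2 ko/ko samples, but 3′ tags lie outside the deleted exon and so do not test the deletion. The type names are those of the deposited annotation. Cells named RPE held Krt18 (710 CPM) and Otx2 (87.4 CPM) but almost no Rpe65 (0.693 CPM) or Best1 (0.196 CPM), and cells named Pericyte held the Schwann cell genes Ngfr (407 CPM) and Sox10 (179 CPM) beside the pericyte gene Cspg4 (198.7 ± 27.5 CPM, the highest of the 8 types), while Rgs5 was at 7.79 CPM, Myh11 at 4.16 CPM and Kcnj8, Higd1b and Ndufa4l2 at 0. Dram2 ko/ko replicate 3 and Dram2 wt/wt replicate 2 stood apart in the RPE, with 575 and 539 cells against 56 to 152 in the other samples, and Dram2 ko/ko replicate 3 was also the only sample of batch 2. Cells carried running numbers, so barcodes shared between libraries could not be counted.

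Gjb2 was highest in the cells named RPE. They gave 513 of its 1020 UMIs (50.3%) although they were 1492 of the 25428 cells. Of the 513, 205 came from Dram2 wt/wt replicate 2 and 263 from Dram2 ko/ko replicate 3, the samples with most RPE cells. In the other samples RPE gave 13, 18, 6 and 8, fewer than Fibroblast cells (46, 55, 26 and 34). The level of Gjb2 in RPE was 8.32 ± 6.80 CPM (SD, n = 6). It was 1.23 ± 1.39 CPM in Fibroblast 2, 0.891 ± 0.408 CPM in Fibroblast, 0.648 ± 0.351 CPM in Fibroblast proliferating, 0.413 ± 0.65 CPM in Fibroblast-like and 0.199 ± 0.487 CPM in Pericyte cells. The sample ranges of each type in this order overlapped those of the next. For RPE and Fibroblast 2 the overlap lay between different samples, since the lowest RPE sample (2.11 CPM) lay below the highest Fibroblast 2 sample (3.12 CPM). Within each of the 6 samples RPE stood above the other types. In Dram2 ko/ko replicate 1 this rested on 6 UMIs, 5 of them in 1 cell. Without the fullest cell of each type, an alternative chosen after seeing the data, RPE stood there at 0.3635 CPM and Fibroblast at 0.3654 CPM. After thinning to 8000 UMIs, 0 of 48 RPE cells of that sample held a Gjb2 UMI. No Gjb2 UMI was found in 288 Endothelial cells, which allows a share of cells with a UMI of up to 1.04% and a level of up to 0.835 CPM, and 1 was found among 84 Myeloid cells. These limits cover counting error only.

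**Figure D1:**
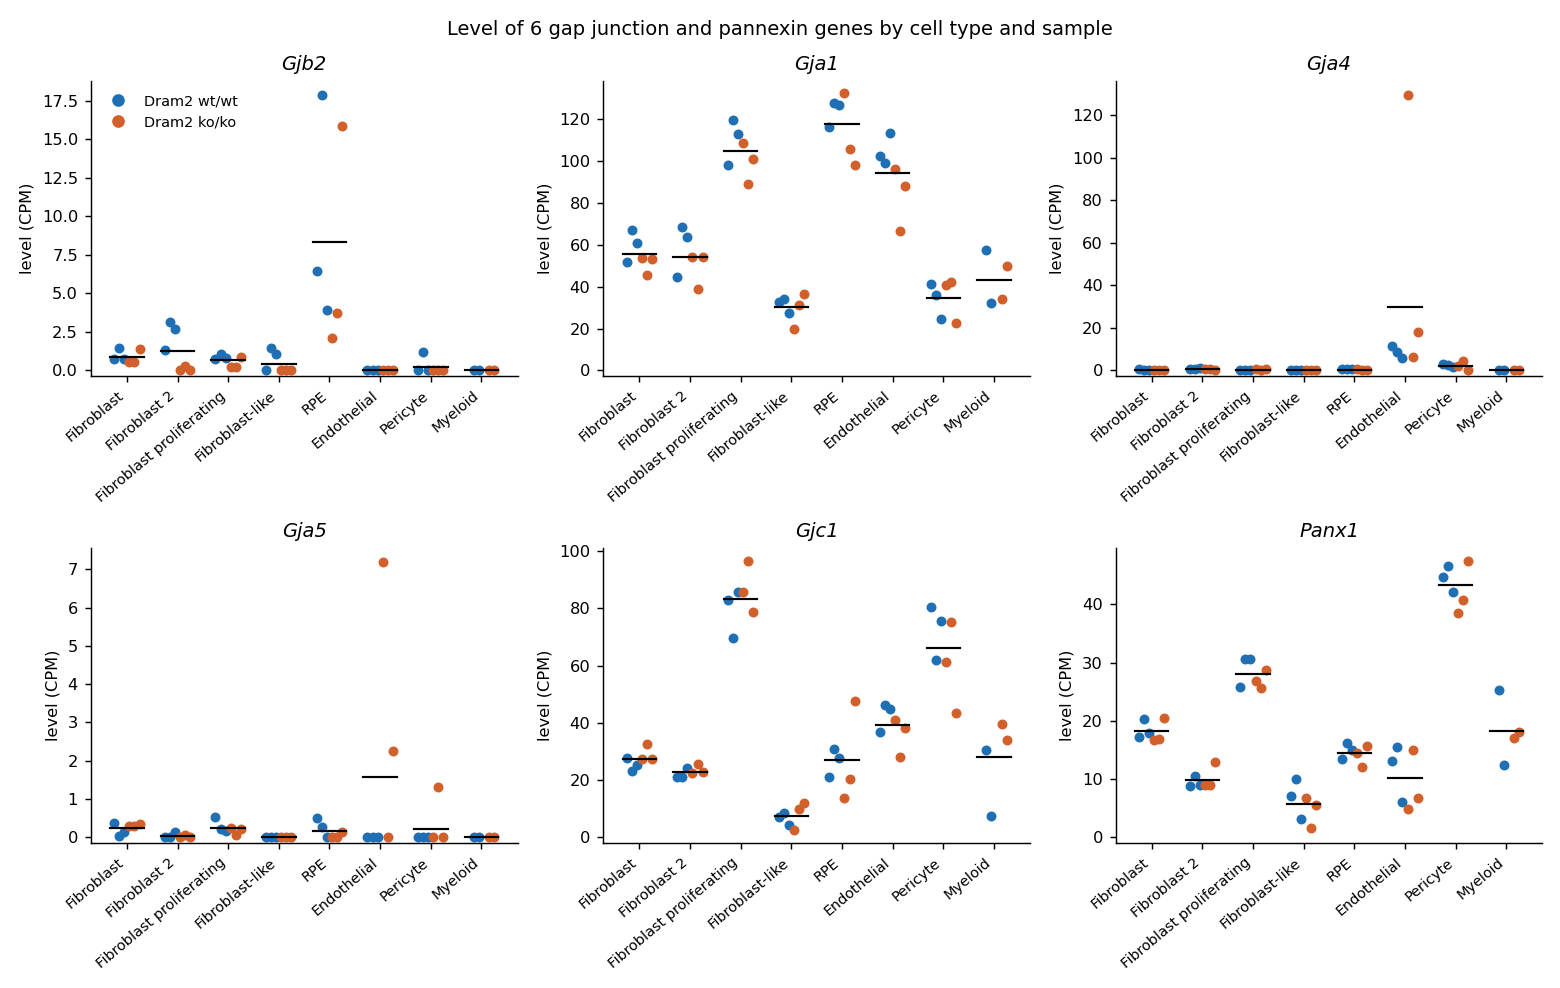
Level of each of the 6 genes (CPM, linear axis with its own scale per gene) in each cell type; each point is the sum of 1 sample with 10 or more cells, blue for Dram2 wt/wt and orange for Dram2 ko/ko, and the black line is the mean over the samples. RPE was the highest type for Gjb2, most so in 2 samples (17.9 and 15.9 CPM). Gja1 was measured in every type, and a single Dram2 ko/ko sample at 129.6 CPM set the Endothelial mean of Gja4.

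A small share of the cells carried the Gjb2 counts. In RPE, 196 of 1492 cells held a UMI, and the 27 cells with 5 or more held 112 of the 236 UMIs in Dram2 wt/wt and 124 of the 277 in Dram2 ko/ko. After every cell was thinned to 8000 UMIs and shallower cells were left out, 5.83% ± 3.76 (SD, n = 6) of RPE cells held a Gjb2 UMI (9.61% without thinning). The same share was 0.476% in Fibroblast and 0.512% in Fibroblast proliferating cells, and no Endothelial cell held one. There were 36.5 Krt18 UMIs for each Gjb2 UMI in RPE, 3.95 in Fibroblast, 7.49 in Fibroblast proliferating and 1.52 in Fibroblast 2 cells. The RPE cells richest in Gjb2 held less Krt18 than those without Gjb2, so a single ratio does not describe all RPE cells. Nothing is read from it about RPE transcripts in the other types. The ratio was 19.5 in Fibroblast-like and 10 in Pericyte cells, from 2 and 1 Gjb2 UMIs. The part of free RNA in the Gjb2 counts of these types was not tested.

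Fibroblast 2 is the contrast that chose the genes. The Dram2 wt/wt samples held 19, 21 and 19 Gjb2 UMIs, or 1.32, 3.12 and 2.68 CPM. The Dram2 ko/ko samples held 0, 4 and 0 UMIs, or 0, 0.267 and 0 CPM. The ranges did not overlap, as in 11.4% of the 14882 genes tested in this type. Few cells were behind these sums, for a Gjb2 UMI was found in 13 of 1225 Dram2 wt/wt cells (1.06%) and, among 1794 Dram2 ko/ko cells, in 4 (0.223%). In Dram2 wt/wt replicate 3, 1 cell held 17 of the 19 UMIs. The fullest cell held 7 of 19 in replicate 1 and 8 of 21 in replicate 2. Over the genotype, 5 Dram2 wt/wt cells with 5 or more UMIs held 44 of the 59 (74.6%), whereas each of the 4 Dram2 ko/ko cells held 1. With the fullest cell of each sample left out, an alternative chosen after seeing the data, the Dram2 wt/wt samples stood at 0.835, 1.94 and 0.285 CPM and the Dram2 ko/ko samples at 0, 0.201 and 0 CPM. After thinning to 8000 UMIs, 3, 0 and 1 cells in Dram2 wt/wt and 0, 3 and 0 cells in Dram2 ko/ko held a Gjb2 UMI, so the shares overlapped. They did not overlap at 4000 UMIs per cell (0.187%, 0.587% and 0.294% against 0%, 0.0996% and 0%) or without thinning (0.741%, 1.76% and 0.872% against 0%, 0.397% and 0%). Of the 14882 genes tested in Fibroblast 2, the share of cells with a UMI did not overlap between genotypes for 11.3% at 4000 UMIs and for 1.16% without thinning, where the deepest and the shallowest sample per cell were both Dram2 ko/ko. Nothing is read from these shares, since this contrast chose Gjb2.

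**Figure D2:**
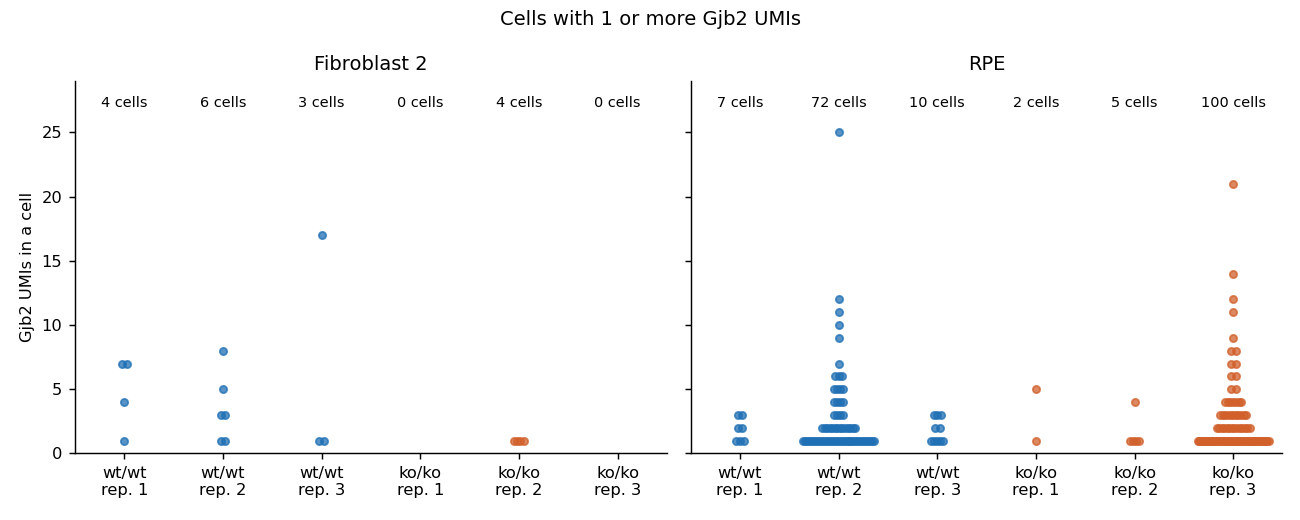
Gjb2 UMIs (linear axis) in every Fibroblast 2 cell (left) and RPE cell (right) that held at least 1, by sample; each point is 1 cell, blue for Dram2 wt/wt and orange for Dram2 ko/ko, and the number above is the count of such cells. In Fibroblast 2, 13 Dram2 wt/wt cells held up to 17 UMIs each and the 4 Dram2 ko/ko cells held 1 each, while in RPE the fullest Dram2 wt/wt cell held 25 UMIs and the fullest Dram2 ko/ko cell 21.

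The Fibroblast 2 cells with Gjb2 held fibroblast genes, and RPE genes at a low level like the other cells of that type. They were deeper than the rest, with a median of 33450 against 18350 UMIs. The 17 such cells held Dcn, a proteoglycan gene of fibroblasts, at 3078 CPM against 2417 CPM in the 3002 cells without Gjb2. Krt18 was at 1.87 CPM in them, Otx2 was at 0, and the keratinocyte genes Krt5 and Krt14 were at 0. Gja1 stood at 35.5 CPM and Gjc1 at 14.9 CPM in them, from 19 and 8 UMIs, against 51.2 and 23.0 CPM in the cells without Gjb2. The RPE list, 8 genes summed, stood at 5.83, 10.4 and 6.22 CPM in the Dram2 wt/wt Fibroblast 2 sums. The Dram2 ko/ko sums held it at 5.08, 5.75 and 6.81 CPM. Over cells of both genotypes it stood at 7.47 CPM in Fibroblast 2 cells with Gjb2 and 6.26 CPM without. In Fibroblast it was higher with Gjb2, at 21.85 against 6.685 CPM, and at 68.9 CPM in cells with 5 or more Gjb2 UMIs. Proliferating fibroblasts held it at 27.25 against 8.40 CPM, and at 17.2 CPM with 5 or more. The cells with 5 or more were few: 17 Fibroblast cells, with 6 of the 8 RPE genes at 0, and 4 proliferating fibroblasts, with 7 at 0. The part of RPE transcripts in these cells was not tested. By the deposited fibroblast sub-clusters, 44 of the 59 Dram2 wt/wt UMIs lay in sub-cluster 3, which holds most Fibroblast 2 cells, and 15 in sub-cluster 1, which took 14 of the Dram2 wt/wt Fibroblast 2 cells.

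In the other types the genotypes were tested with voom-limma on the sums, and log2 fold changes are Dram2 ko/ko over Dram2 wt/wt. Where nothing says that samples came from separate animals, the p-values measure only the spread between these samples. Gjb2 passed the low-count filter in 3 of those types and was not called in any. In RPE, Gjb2 stood at 6.46, 17.9 and 3.91 CPM in Dram2 wt/wt and at 2.11, 3.72 and 15.9 CPM in Dram2 ko/ko. The genotypes overlapped throughout, and 1 sample of each was high. The difference on the log2 scale was −0.10 with an SE of 0.789 and an adjusted p of 0.9999 by voom-limma, where 0% of the 12333 genes tested were called and 573 had an unadjusted p below 0.05. Within batch 1, without Dram2 ko/ko replicate 3, it was −1.73 (adjusted p = 0.631), and without Dram2 wt/wt replicate 2 it was 1.03 (adjusted p = 0.9988).

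In proliferating fibroblasts, Gjb2 stood at 0.721, 1.07 and 0.804 CPM in Dram2 wt/wt and at 0.226, 0.215 and 0.858 CPM in Dram2 ko/ko; this type and Fibroblast lie under the level of 5 CPM set for giving values and were added after the values were seen. Dram2 ko/ko replicate 3 lay among the controls and the other 2 of its group lay below them. Dram2 ko/ko replicate 3 and Dram2 wt/wt replicate 2, the samples with most RPE cells, were the 2 highest here and in Fibroblast. The part of RPE transcripts in these levels was not tested. The log2 fold change of −1.27 (SE 0.465) had an unadjusted p of 0.0229 and an adjusted p of 0.504 by voom-limma, where 0.624% of 18113 genes were called. In batch 1 alone it was −1.86 (adjusted p = 0.0560), in a fit where 226 of 18635 genes were called. Over all alternatives it lay between −1.88 and −0.91. The adjusted p then ran from 0.0509 to 0.9999 over voom-limma, edgeR and DESeq2 fits. In Fibroblast, with 0.721, 1.44 and 0.712 CPM against 0.527, 0.571 and 1.38 CPM, the difference was −0.25 on the log2 scale with an SE of 0.412 (adjusted p = 0.947, voom-limma), where 0.00503% of 19886 genes were called.

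The 2 samples that were high in RPE Gjb2 differed from the others in more than cell number. Their RPE cells held the RPE list at 508 and 296 CPM, against 876 to 1112 CPM in the other 4 samples, and the proliferation list (Mki67, Top2a, Cdk1 and Ccnb1) at 388 and 559 CPM against 85.5 to 172 CPM. The part of these states in the Gjb2 level was not tested. Within Dram2 wt/wt replicate 2, RPE cells with 2 or more UMIs of Mki67 and Top2a held Gjb2 at 18.3 CPM and the other RPE cells at 17.5 CPM. In Dram2 ko/ko replicate 3 the values were 14.8 and 17.5 CPM. This split also sorted cells by depth, with medians of 25580 against 8664 UMIs in Dram2 wt/wt replicate 2 and 30670 against 23140 UMIs in Dram2 ko/ko replicate 3. A Gjb2 UMI was found in 20.8% against 9.55% of the cells in the first sample and in 18.9% against 15.75% in the second. Without both samples the mean Gjb2 level in RPE was 4.05 ± 1.80 CPM (SD, n = 4), the range of those 4 samples was 2.11 to 6.46 CPM, and Gjc1 stood at 20.7 against 26.9 CPM, Gja1 at 120.4 against 117.9 CPM and Panx1 at 13.7 against 14.5 CPM.

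**Figure D3:**
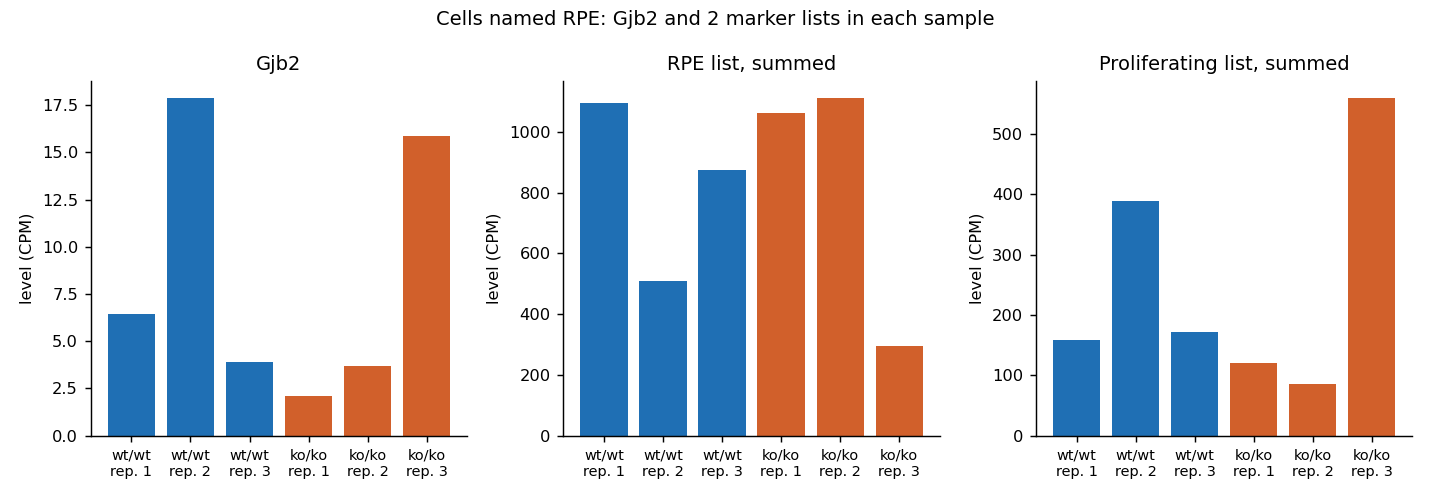
RPE cells of each sample: level of Gjb2 (left), summed level of the 8-gene RPE list (middle) and of the 4-gene proliferation list (right), in CPM on axes that start at 0, blue for Dram2 wt/wt and orange for Dram2 ko/ko. Dram2 ko/ko replicate 3 and Dram2 wt/wt replicate 2 had the highest Gjb2 (15.9 and 17.9 CPM), the lowest RPE list and the highest proliferation list.

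Over all samples, the 196 RPE cells with Gjb2 held Gja1 at 121.1 CPM and the 1296 without it at 112.4 CPM. Gjc1 stood at 40.7 and 34.2 CPM in the same cells, and Panx1 at 14.2 and 15.6 CPM. The 27 cells with 5 or more Gjb2 UMIs held less Krt18 (169 CPM) than cells without Gjb2 (478 CPM), and Krt5 and Krt14 were at 0 in them. The RPE list stood at 244 CPM in these 27 cells and at 571 CPM without Gjb2. The list of 6 pericyte or smooth muscle genes stood at 168.9 CPM in the 27 cells, at 69.7 CPM in all 196 cells with Gjb2 and at 30.9 CPM without. Most of it was Myh11, a smooth muscle myosin gene (151 CPM in the 27 cells), while Higd1b and Ndufa4l2 were at 0 in them. The part of these lists in the Gjb2 level was not tested. Most of these cells came from the 2 samples just described, and cells of 1 sample are not replicates, so no test was made.

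Gja1 was measured in every type. It was highest in RPE (117.9 ± 13.7 CPM, SD, n = 6), followed by Fibroblast proliferating (104.8 ± 10.9 CPM), Endothelial (94.3 ± 16.0 CPM), Fibroblast (55.4 ± 7.45 CPM), Fibroblast 2 (54.0 ± 11.3 CPM), Myeloid (43.4 ± 12.4 CPM, n = 4), Pericyte (34.5 ± 8.72 CPM) and Fibroblast-like cells (30.4 ± 5.97 CPM). The neighbours in this order overlapped, among them Endothelial and Fibroblast, whose ranges met only at 66.5 and 66.9 CPM. At 8000 UMIs per cell, 53.2% ± 4.79 of RPE cells (SD, n = 6), 52.7% ± 3.03 of proliferating fibroblasts and 33.4% ± 3.43 of Fibroblast cells held a Gja1 UMI. Its level was spread over a large share of the cells.

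Gja1 did not pass the test between genotypes in any type. In RPE it stood at 116.3, 127.6 and 127.0 CPM in Dram2 wt/wt and at 132.6, 105.9 and 98.0 CPM in Dram2 ko/ko, and the samples overlapped. The share of RPE cells with a Gja1 UMI at 8000 UMIs per cell did not overlap, at 57.5%, 55.7% and 58.5% against 52.1%, 48.8% and 46.8%, but it did at 4000 UMIs (22.2%, 35.4% and 38.9% against 32.3%, 29% and 26.5%) and without thinning. At 8000 UMIs this share did not overlap for 7.41% of the 10919 genes at 5 CPM or more in a genotype in RPE. Its log2 fold change was −0.14 (SE 0.164) in RPE, −0.15 (SE 0.10) in Fibroblast proliferating, −0.23 (SE 0.110) in Fibroblast, −0.23 (SE 0.176) in Fibroblast 2 and −0.18 (SE 0.267) in Fibroblast-like cells. Its smallest adjusted p over all types was 0.772 (voom-limma), in Fibroblast. In Endothelial cells the genotypes did not overlap, as in 10.5% of the genes tested there. Gja1 stood there at 102.6, 99.2 and 113.4 CPM in Dram2 wt/wt and at 96.0, 66.5 and 87.9 CPM in Dram2 ko/ko, from 31 to 117 UMIs in 23 to 92 cells per sample. The difference of −0.32 (SE 0.206) had an adjusted p of 0.982 by voom-limma, where 0% of 6682 genes were called and 350 had an unadjusted p below 0.05. The share of Endothelial cells with a Gja1 UMI at 8000 UMIs per cell overlapped between genotypes, with 17 to 56 cells kept per sample. It was 46.4%, 35% and 51.6% in Dram2 wt/wt and 61.9%, 35.3% and 57.7% in Dram2 ko/ko. In Pericyte and Myeloid cells the log2 fold change of Gja1 was 0.07 (SE 0.279) and 0.08 (SE 0.403).

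Gjc1 followed a different order. It was highest in proliferating fibroblasts (83.2 ± 8.92 CPM, SD, n = 6) and in Pericyte cells (66.3 ± 13.7 CPM), whose samples overlapped. Endothelial (39.2 ± 6.61 CPM), Myeloid (27.9 ± 14.2 CPM, n = 4), Fibroblast (27.2 ± 3.19 CPM), RPE (26.9 ± 11.8 CPM) and Fibroblast 2 cells (22.9 ± 1.77 CPM) came next and overlapped in turn. Fibroblast-like cells (7.33 ± 3.56 CPM) lay below all Fibroblast 2 samples. Those cells were shallow, with a median of 4825 UMIs per cell.

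Between genotypes, Gjc1 stood in proliferating fibroblasts at 83.0, 69.6 and 85.9 CPM in Dram2 wt/wt and at 85.8, 96.5 and 78.6 CPM in Dram2 ko/ko. The log2 fold change was 0.13 (SE 0.111) there, 0.20 (SE 0.111) in Fibroblast and 0.11 (SE 0.123) in Fibroblast 2, and none passed the test (smallest adjusted p 0.863, voom-limma). In RPE it was 0.10 (SE 0.413) with all samples. RPE held Gjc1 at 20.9, 30.96 and 27.8 CPM in Dram2 wt/wt and at 13.7, 20.4 and 47.6 CPM in Dram2 ko/ko, so Dram2 ko/ko replicate 3 was the highest and the other 2 of its group the lowest. Within batch 1 the log2 fold change turned to −0.67 (adjusted p = 0.592). In Endothelial and Pericyte cells it was −0.19 (SE 0.275) and −0.22 (SE 0.219). In Myeloid cells, with 11 to 32 cells in each of 2 samples per genotype, the Dram2 ko/ko samples (39.7 and 34.1 CPM) lay above the Dram2 wt/wt samples (30.4 and 7.40 CPM), and differed by 0.87 on the log2 scale with an SE of 0.571 (adjusted p = 0.883, voom-limma); 0.0296% of 6747 genes were called there, and 33.7% did not overlap between genotypes.

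Gja4 and Gja5, the arterial connexins, had their highest means in Endothelial cells, though from few molecules. Gja4 stood in Endothelial cells at 11.4, 8.82 and 5.97 CPM in Dram2 wt/wt and at 129.6, 6.44 and 18.0 CPM in Dram2 ko/ko. Every one of these samples lay above every sample of every other type, of which Pericyte was the next at 2.28 ± 1.53 CPM (SD, n = 6). Those cells held the endothelial adhesion genes Cdh5 at 971 CPM and Pecam1 at 653 CPM. Dram2 ko/ko replicate 1 stood far above the rest: it had 23 Endothelial cells, and 38 of its 54 Gja4 UMIs were in 1 cell. Without the fullest cell of each sample, an alternative chosen after seeing the data, the mean over samples was 9.60 CPM instead of 30.1 CPM, and that sample was still the highest at 39.5 CPM. The separation from Pericyte cells was then lost, since the lowest Endothelial samples stood at 1.504 and 2.244 CPM and the highest Pericyte sample at 3.323 CPM. Without that sample the mean was 10.1 CPM. In all, a Gja4 UMI was found in 10 of the 178 Endothelial cells of Dram2 wt/wt mice, and among the 110 of Dram2 ko/ko mice in 11, and the gene did not pass the low-count filter there.

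Gja5 was rarer still. It gave 4 UMIs in Endothelial cells, 3 in Dram2 ko/ko replicate 1 (7.20 CPM) and 1 in Dram2 ko/ko replicate 3 (2.25 CPM), and was at 0 in the other 4 samples. Its mean in Endothelial cells was 1.58 ± 2.90 CPM, with a median of 0. The mean was 0.240 ± 0.131 CPM in Fibroblast and 0.234 ± 0.155 CPM in proliferating fibroblasts (SD, n = 6), where every sample held a UMI. Neither Gja4 nor Gja5 had a UMI in 1121 Fibroblast-like or 84 Myeloid cells, which allows levels of up to 0.455 and 1.36 CPM. Where they passed the filter they stayed under 1 CPM and were not called. In proliferating fibroblasts the Dram2 ko/ko samples of Gja4 (0.451, 0.400 and 0.536 CPM) lay above the Dram2 wt/wt samples (0.328, 0.251 and 0.257 CPM), with an adjusted p of 0.762 by voom-limma, and 11.3% of the genes tested in this type did not overlap either.

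Panx1 was highest in the cells named Pericyte. They held it at 43.4 ± 3.46 CPM (SD, n = 6), above every sample of proliferating fibroblasts (28.1 ± 2.24 CPM), which in turn lay above every Fibroblast sample (18.2 ± 1.72 CPM). Myeloid (18.2 ± 5.39 CPM, n = 4), RPE (14.5 ± 1.53 CPM), Endothelial (10.2 ± 4.86 CPM), Fibroblast 2 (9.87 ± 1.63 CPM) and Fibroblast-like cells (5.67 ± 2.97 CPM) followed, each overlapping the next. Between genotypes, Pericyte cells stood at 44.7, 46.6 and 42.1 CPM in Dram2 wt/wt and at 38.6, 40.8 and 47.5 CPM in Dram2 ko/ko. Its log2 fold changes were −0.09 (SE 0.200) in Pericyte cells, where 0.0118% of 8454 genes were called, −0.04 (SE 0.112) in Fibroblast, 0.09 (SE 0.179) in Fibroblast 2, −0.10 (SE 0.098) in Fibroblast proliferating and −0.05 (SE 0.174) in RPE. None passed the test.

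**Figure D4:**
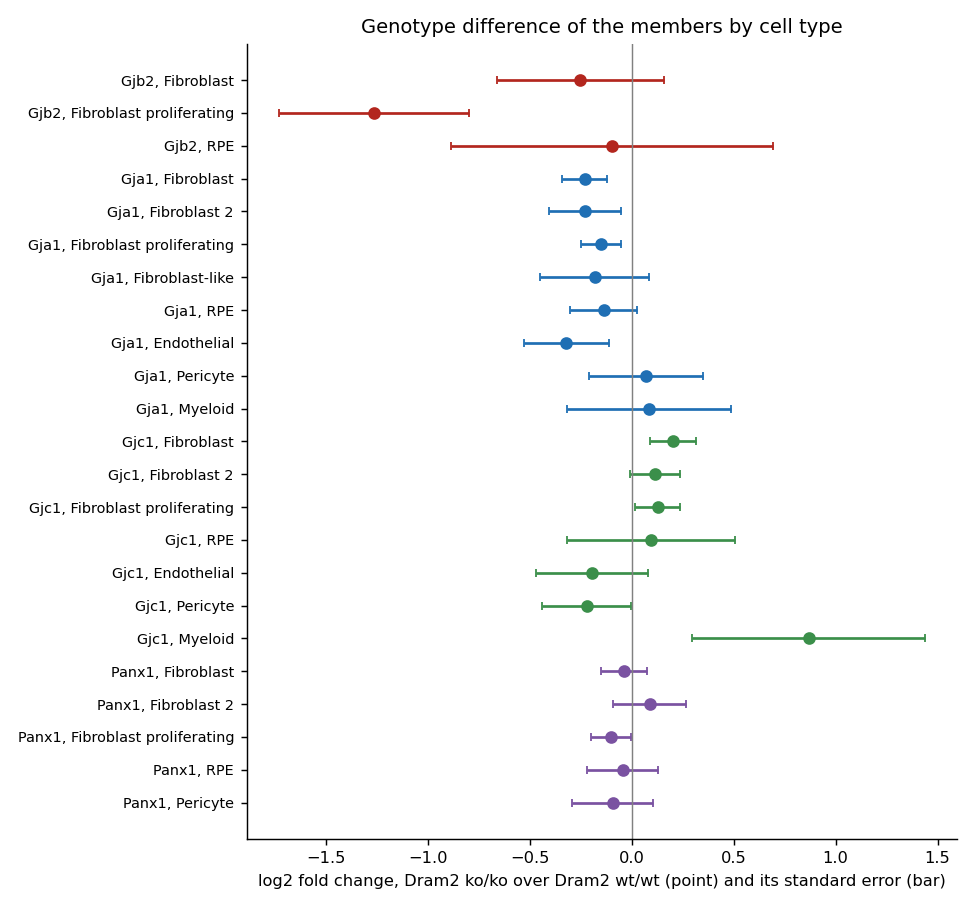
Log2 fold change of Dram2 ko/ko over Dram2 wt/wt (point) with its standard error (bar, voom-limma) for each member and type with a level of 5 CPM or more and a test, and for Gjb2 also in the 2 other fibroblast types tested; Gjb2 in Fibroblast 2 is left out because the genes were chosen on it. The values for Gja1, Gjc1 and Panx1 lay within 0.32 of 0 except Gjc1 in Myeloid cells (0.87), and Gjb2 in proliferating fibroblasts was at −1.27.

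Counted over the 8 types, with Gjb2 in Fibroblast 2 set apart, the members passed the low-count filter 26 times and were called 0 times by voom-limma. The unadjusted p was below 0.05 once, for Gjb2 in proliferating fibroblasts. Neither edgeR nor DESeq2 called a member (0 and 0 of 26, with 0 unadjusted p below 0.05 in either). Over all genes, voom-limma called 0% to 0.624% in a type, edgeR 0 to 62 genes and DESeq2 8 to 320 genes. At such shares, 0 of 26 says little about the members. In Fibroblast 2, 3 other members passed the filter beside a background of 0.222% of 14882 genes called, and in Fibroblast-like cells 1 did, where 0% of 7218 genes were called and 367 had an unadjusted p below 0.05. Of the 21 member and type pairs with a level of 5 CPM or more and a test, 13 log2 fold changes were below 0 and 8 above, and 2 had sample ranges that did not overlap (Gja1 in Endothelial and Gjc1 in Myeloid cells), beside 12.3% of the 71872 gene and type pairs at that level. In whole-sample sums, where fewer cells of a type and less RNA per cell cannot be told apart, Gja1 stood at −0.16 (SE 0.120), Gjc1 at 0.19 (SE 0.110) and Panx1 at −0.07 (SE 0.102), 0% of 22580 genes were called and 1583 had an unadjusted p below 0.05. Gjb2 in these sums was highest in the 2 samples with the most RPE cells, with 0.880, 3.09 and 0.961 CPM in Dram2 wt/wt and 0.392, 0.474 and 3.28 CPM in Dram2 ko/ko.

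Other connexins were also measured. Gja3, a lens connexin and the neighbour of Gjb2, stood at 16.6 ± 4.97 CPM in Pericyte and 14.4 ± 4.36 CPM in RPE cells (SD, n = 6). Gjc3, a connexin of myelinating glia, reached 5.63 ± 5.19 CPM in Pericyte cells, Gjb5 3.18 ± 0.593 CPM in proliferating fibroblasts, and Gjb1, the connexin of Schwann cell myelin, 2.37 ± 2.59 CPM in Pericyte cells from 8 UMIs. Gjb1 had no UMI in sums of the other types, and Gjc3 gave at most 0.0111 CPM in them. RPE held Gja1, Gjc1, Gja3 and Gjb2 among its connexins, and these did not all peak in the same samples. The 2 RPE samples highest in Gjb2 (15.9 and 17.9 CPM) held Gja3 at 8.57 to 11.6 CPM, against 13 to 20.65 CPM in the other 4. The same 2 samples were the highest in Gjc1, at 30.96 and 47.6 CPM against 13.7 to 27.8 CPM. For Gja1 they stood at 98.0 and 127.6 CPM, against 105.9 to 132.6 CPM. The cells named Pericyte carried the glial connexins beside the Schwann cell genes named above. Gjb6, often described as a partner of Gjb2, gave 11 UMIs in all cells.

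**Figure D5:**
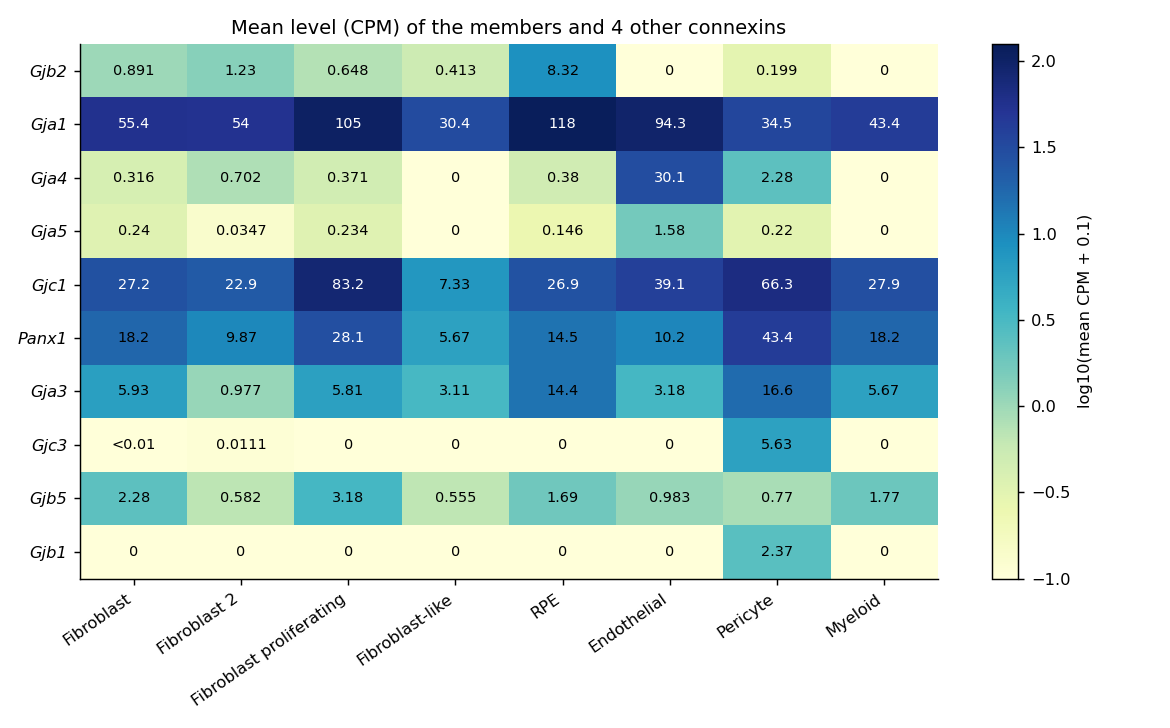
Mean level (CPM, printed in each cell; colour is log10 of the mean plus 0.1) of the 6 members and 4 other connexins, in the 8 cell types over both genotypes. Gja1, Gjc1 and Panx1 were measured in every type, Gja4 was highest in Endothelial cells (30.1 CPM), Gjb2 in RPE (8.32 CPM), and Gjc3 and Gjb1 in Pericyte cells.

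Wider lists of genes were read in the same fits. The whole connexin and pannexin family was tested 42 times over the 8 types, with 0 calls and 1 unadjusted p below 0.05 by voom-limma. The 14 partners and regulators of gap junctions, such as the scaffold Tjp1 and the caveolin Cav1, were tested 104 times with 0 calls. Their median log2 fold change lay between −0.06 (Pericyte) and −0.0047 (Fibroblast 2) in 6 types and was 0.12 in Endothelial and 0.14 in Myeloid cells, beside −0.02 to 0.01 over all genes tested in any type. Ccn3, which encodes a matricellular protein that binds connexin 43, had the largest change of the 14 in Fibroblast 2 and was not called. It had −1.24 in Fibroblast 2 (SE 0.391, adjusted p = 0.428, voom-limma) and −1.29 in RPE (SE 0.514, adjusted p = 0.9999). It had 0.13 in Fibroblast, 0.21 in Fibroblast proliferating and −0.02 in whole samples. A link to Gjb2 or Gja1 was not tested. The 18 genes of large-pore channels and extracellular ATP, among them the LRRC8 channels and purinergic receptors, were tested 91 times with 0 calls, and their median ran from −0.21 in RPE to 0.13 in Myeloid cells, with 0.01 in Fibroblast 2 and 0.02 in Fibroblast proliferating. The 8 genes around Gjb2 on chromosome 14 were tested 42 times with 0 calls, and their median in Fibroblast 2, where Gjb2 was low in Dram2 ko/ko, was −0.06. Unadjusted p below 0.05 numbered 5 of 104, 4 of 91 and 0 of 42 in these 3 lists, beside 6.12% of the tests over all genes in the 8 types. Their 0 calls stand beside 0% to 0.624% of all genes called in a type by voom-limma. Of their genes, edgeR and DESeq2 called 0.

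Across the 46 sums of 10 or more cells, the genes most like each member were sought among 13054 genes by the Pearson correlation of log2(CPM + 1), as a description over sums that share samples and types. The 5 closest to Gjb2 were Folr1 (r = 0.860), Ivl (0.849), Mab21l2 (0.833), Bmp7 (0.833) and Gm12002 (0.829), each highest in RPE. Folr1 encodes a folate receptor and Ivl encodes involucrin, a protein of the cornified envelope. Gja1 was closest to Gprc5a (0.874), Sgms2 (0.839), Bmp2 (0.820), Nuak2 (0.820) and Epha4 (0.810), of which Gprc5a was highest in proliferating fibroblasts and the others in RPE. Gja4 was closest to Gm36756 (0.904), Bcl6b (0.892), Depp1 (0.892), Kit (0.889) and Unc45b (0.889), each highest in Endothelial cells. Gja5 was closest to Gja4 itself (0.688), Ccdc88c (0.670), Hmcn1 (0.626), Tnfrsf9 (0.620) and Gm36756 (0.606). The values of Gja5 rest on few UMIs, and 3 of its 4 Endothelial UMIs lay in Dram2 ko/ko replicate 1, the sample highest in Gja4. Gjc1 was closest to Arl6ip6 (0.920), Pbrm1 (0.912), Asxl1 (0.902), Casp8ap2 (0.898) and Ddost (0.893), and Panx1 to Sipa1l1 (0.875), Gm20388 (0.856), Galnt2 (0.855), Sqle (0.854) and Virma (0.852). Among the members, Gjc1 and Panx1 were the most alike (r = 0.717), and Gjb2 had r = 0.457 with Gja1 and between −0.27 and 0.01 with the others.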

How the data were processed

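The deposited table held UMI counts per gene and cell, made by the authors with Cell Ranger 3.1.0 (submitters' processing notes) on mm10 (GRCm38), exons only. Their annotation gave the cell types, from clusters of counts integrated over batch, and was used as it stood. The members and gene lists were chosen with earlier results of these data known.

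Counts were summed per sample and type (10 or more cells, so Myeloid had 2 samples per genotype). Genotypes were compared in each type with voom-limma (limma 3.58.1, TMM and filterByExpr from edgeR 4.0.16) without covariates, Benjamini-Hochberg over all genes tested, called at adjusted p under 0.05. The test was checked on simulated counts for the Fibroblast and RPE sums alone, with large changes in well-counted genes. That check does not cover genes with few counts, such as Gjb2, Gja4 and Gja5 in most types. Alternatives were edgeR's quasi-likelihood test, DESeq2 1.42.0, library size alone, no filter, batch, the replicate block, cell filters (under 500 genes or over 20% mitochondrial counts, 469 cells) and leaving out each sample. No doublets were called; the 5% of cells with most UMIs were left out as an alternative. Shares were thinned to 8000 UMIs per cell, and a count of 0 was taken to allow 3 counts. Named genes were the members, other connexins and pannexins with a mean of 1 CPM, list genes called, Dram2 and the 5 genes most like each member; values were given for members at 5 CPM or more in a genotype. Marker genes, Ccn3, Tjp1, Cav1, Gjb6 and the types under 5 CPM fall outside this rule. Symbols came from GENCODE M21 and matched 52489 of 52636 IDs. Some genes that meet the rule are not reported here. Levels were not compared between genes as abundances.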

Additional observations from a re-analysis of the deposited data

Results flagged for a closer look

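Of 29 member levels over the samples of a type, 2 held a sample far from the others by Dixon's criterion (0.625 for 6 samples). Chance meets it in about 1 in 20 groups of normally distributed values, a rate that need not hold for sparse counts such as these. Gja4 in Endothelial cells stood at 129.6 CPM in Dram2 ko/ko replicate 1, with the next sample at 18.0 CPM. Gja5 in the same cells of that sample stood at 7.20 CPM, from 3 UMIs, with the next sample at 2.25 CPM. Both rest on 23 cells.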

How the results depend on the processing

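No member was called under any of the alternatives run, in any type or in whole samples (0 in each, Gjb2 in Fibroblast 2 and in whole samples set apart). Of 26 log2 fold changes refitted (23 in the types and 3 in whole samples, for Gja1, Gjc1, Panx1 and Gjb2, with Gja4 and Gja5 left out for their low levels), 17 kept their direction throughout and 9 turned in at least 1 alternative. The cause of the turns was not tested.

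With batch as a term, Panx1 in Fibroblast 2 turned to −0.047, Gjc1 in RPE to −0.69 and Gja1 in Myeloid cells to −0.30. Gja1 in Myeloid cells was also −0.013 with edgeR and −0.024 with DESeq2. Leaving out 1 sample at a time gave ranges that crossed 0 for Panx1 in Fibroblast (−0.12 to 0.037), Fibroblast 2 (−0.036 to 0.20) and RPE (−0.12 to 0.0032), Gjb2 in Fibroblast (−0.67 to 0.066) and RPE (−1.73 to 1.03), Gjc1 in RPE (−0.67 to 0.41), and Gja1 in Fibroblast-like (−0.40 to 0.11), Pericyte (−0.15 to 0.26) and Myeloid cells (−0.30 to 0.54). The mean Panx1 level in Pericyte cells moved from 43.4 to 37.4 CPM with TMM-scaled library sizes and was still the highest.

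The replicate numbers did not pair the samples: deviations of same-numbered samples correlated at 0.10, −0.43 and 0.03. With the replicate block 0 members were called, and Gjb2 in RPE turned to 0.23.

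Over all genes, calls in Fibroblast 2 numbered 33 by voom-limma, 11 by edgeR and 168 by DESeq2, and from 0 to 168 over all alternatives. In proliferating fibroblasts they numbered 113, 62 and 320, and from 0 to 320. With the replicate block they were 2 and 0. With so few genes, a count of 0 members called says little about their stability. Depth limits Gja5 (2 UMIs), Gja4 (49) and Gjb2 (63) in Fibroblast 2.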
